A study of Homo sapiens with 9 samples.

Results

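The ADAM, ADAMTS and MMP metalloproteases were examined in DLD1 cells, a human colorectal cancer line, after depletion of the nuclear lamins. Members were chosen by gene name, as every gene on the array whose name is ADAM, ADAMTS or MMP followed by its number, which gave 63 of 31033 gene names. They were 21 ADAM, 19 ADAMTS and 23 MMP genes, measured by 101 probes. The family was selected on the change of 2 of its members, ADAM9 upon Lamin A/C Kd and ADAMTS4 in Lamin B2 Kd, so these 2 genes are described without a test.

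RNA was measured on 9 single-color arrays, 1 per culture, in 3 groups of 3. Control cells received no siRNA. Lamin A/C Kd cells received 100 nM siRNA against Lamin A/C, and Lamin B2 Kd cells 100 nM siRNA against Lamin B2, both for 48 h. No array held cells treated with a control siRNA, so the effect of a lamin and the effect of siRNA treatment as such cannot be told apart in a comparison with Control. All 3 groups were the same cell line, and the study describes the replicates as biological replicates.

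The members that are active proteases hold a zinc ion in the catalytic site and are made as inactive proforms. ADAM proteins sit in the membrane and release the outer parts of other membrane proteins, among them growth factors, cytokines and Notch receptors, and several ADAM proteins lack the catalytic motif and act in adhesion. ADAMTS proteins are secreted and cut matrix molecules such as proteoglycans, procollagens and von Willebrand factor. MMP proteins cut collagens, gelatin, laminins and many other extracellular proteins, either as secreted enzymes or anchored in the membrane. Tissue inhibitors of metalloproteases (TIMPs) block all 3 families to different degrees. In colorectal tumors many MMP genes are known to be made largely by stromal cells, which a cell line culture does not contain.

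Values are log2 signals relative to the median spot of the same array, so 0 is the array median, and a difference of 1 is a 2-fold difference. A probe was counted as detected on an array where it was well above background by the scanner software. Levels of different genes are not compared, because each probe has its own brightness. The depleted lamins served as a check of the labels. LMNA was 14.2-fold lower in Lamin A/C Kd than in Control (adjusted p = 0.000225, limma) and the level of LMNB2 was 20% of Control upon Lamin B2 Kd (adjusted p = 0.000523, limma). The share of spots well above background was 65.6 to 74.1% per array. Lamin B2 Kd replicate 3 was alone on another slide, and it differed from the other Lamin B2 Kd arrays with a standard deviation of 0.56 and 0.58, against 0.25 to 0.33 for the other pairs within a group. Of 8 colon epithelial markers on the array, 7 were detected on all 9 arrays, among them CDH1, KRT20 and CDX2.

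Promoters of members detected on all arrays and of members detected on none differed in their sequence letters. RefSeq promoter sequences were at hand for 36 of the 63 members, and the 250 bases before the transcription start were searched on both strands for the TATA box TATAAA, the AP-1 site TGANTCA and the GC box GGGCGG. The 4 sequences that follow are shown because MMP11, ADAMTS13 and MMP15 changed in the knockdowns, and because MMP7, a matrilysin, was detected on no array and holds both a TATA box and an AP-1 site. Capitals mark the motif matches, none of which overlap, and each sequence reads 5′ to 3′ along the gene's strand.
MMP11 (GRCh38.p14, chr22:23772599-23772848, plus strand): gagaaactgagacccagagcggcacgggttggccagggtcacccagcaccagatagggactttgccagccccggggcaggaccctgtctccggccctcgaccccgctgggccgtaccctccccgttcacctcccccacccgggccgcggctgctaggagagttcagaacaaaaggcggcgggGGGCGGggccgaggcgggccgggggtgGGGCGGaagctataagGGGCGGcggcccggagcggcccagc
ADAMTS13 (GRCh38.p14, chr9:133422117-133422366, plus strand): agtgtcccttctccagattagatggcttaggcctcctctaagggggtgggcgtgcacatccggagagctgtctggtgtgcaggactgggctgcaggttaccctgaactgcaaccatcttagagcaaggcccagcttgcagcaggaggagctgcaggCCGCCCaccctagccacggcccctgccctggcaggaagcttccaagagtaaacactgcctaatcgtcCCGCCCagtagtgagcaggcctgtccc
MMP15 (GRCh38.p14, chr16:58025504-58025753, plus strand): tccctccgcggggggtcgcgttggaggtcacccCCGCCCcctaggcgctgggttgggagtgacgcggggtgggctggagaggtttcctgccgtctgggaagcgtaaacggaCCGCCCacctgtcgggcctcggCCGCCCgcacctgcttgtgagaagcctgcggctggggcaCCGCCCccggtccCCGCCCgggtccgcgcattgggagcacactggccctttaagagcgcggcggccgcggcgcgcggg
MMP7 (GRCh38.p14, chr11:102530748-102530997, minus strand): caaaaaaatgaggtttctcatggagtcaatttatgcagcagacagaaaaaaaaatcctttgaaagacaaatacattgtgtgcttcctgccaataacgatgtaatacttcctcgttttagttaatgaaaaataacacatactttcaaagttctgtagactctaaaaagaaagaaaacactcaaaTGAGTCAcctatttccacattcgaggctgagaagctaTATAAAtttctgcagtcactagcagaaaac
The GC box stood 3 times in MMP11, 2 times in ADAMTS13 and 5 times in MMP15, and the bases G and C made up 73.2%, 61.2% and 74.8% of these 3 sequences. MMP7 had no GC box and 33.6% G and C. Among the members with a sequence, the GC box was present in 12 of 14 genes detected on all 9 arrays (85.7%) and in 3 of 8 genes detected on no array (37.5%), against 42.6% of 35116 promoters. The TATA box was present in 0 of the 14 detected genes and in 4 of the 8 undetected genes (MMP7, MMP8, MMP20 and MMP26), against 10.7% of all promoters. The AP-1 site was present in 0 of the 14 and in 3 of the 8 (MMP7, MMP20 and ADAMTS12), against 6.57% of all promoters. In the 14 members with a sequence that were detected on 1 to 8 arrays, the GC box was present in 57.1%, the TATA box in 21.4% and the AP-1 site in 7.14%. Of the undetected genes, MMP7, MMP20 and MMP8 lie close together on chromosome 11. The shares of all promoters were not split by detection, so whether these differences are particular to the family was not tested. These are counts of letters in a short window, and binding of a factor was not measured.

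Detection differed between the branches of the family. By its brightest probe, a member was detected on all 9 arrays in 24 of 63 genes (38.1%), on none in 14 (22.2%) and on some in 25, while of all gene names 65.3% were detected on all arrays and 14.3% on none. The genes detected throughout were 13 of 21 ADAM genes, 4 of 19 ADAMTS genes and 7 of 23 MMP genes. Under the looser mark of the scanner software, a signal positive and significant against background, the number was 37 (58.7%).

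Among the ADAM genes, those detected on all arrays included ADAM8, ADAM9, ADAM10, ADAM15, ADAM17, ADAM19, ADAM21 and ADAM33, which carry the catalytic motif, and ADAM6, ADAM11, ADAM22, ADAM23 and ADAM32, which do not encode an active protease. ADAM6 is a pseudogene in humans. ADAM2, a sperm surface protein, was detected on none. Among the ADAMTS genes only the procollagen N-proteinases ADAMTS2 and ADAMTS14, the COMP-cleaving ADAMTS7 and the von Willebrand factor protease ADAMTS13 were detected throughout. No proteoglycanase was detected on all 9 arrays, and ADAMTS8, ADAMTS9 and ADAMTS20 were detected on none. Among the MMP genes, 4 of 6 membrane-type enzymes (MMP14, MMP15, MMP17 and MMP25), the gelatinase MMP9, and MMP19 and MMP28 were detected throughout. The gelatinase MMP2 and the matrilysins MMP7 and MMP26 were detected on no array.

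MMP genes that neighbor each other on chromosome 11 were at or near background. In the RefSeq order, MMP7, MMP20, MMP27, MMP8, MMP10, MMP1, MMP3, MMP12 and MMP13 follow each other there, and they include all 3 collagenases. MMP7, MMP20, MMP8, MMP3 and MMP13 were detected on 0 of 9 arrays. MMP27, MMP10 and MMP12 were detected on 1 array each, Lamin B2 Kd replicate 3, which lay on the other slide. MMP1, interstitial collagenase, was detected on 3 arrays, 1 of Lamin A/C Kd and 2 of Lamin B2 Kd. None of these genes was tested, since none was detected on all 3 arrays of a group.

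**Figure D1:**
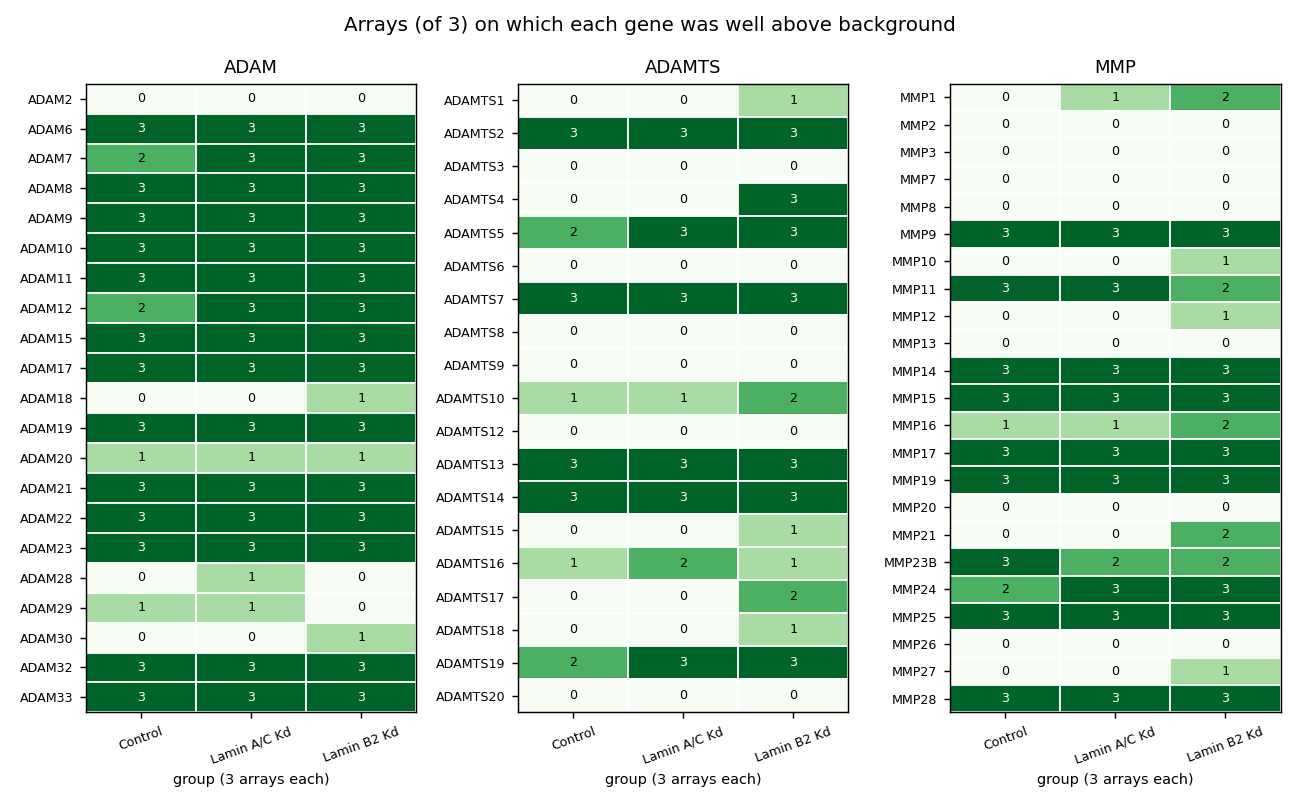
Number of arrays, of 3 in each group, on which the brightest probe of each of the 63 genes was well above background, with genes in rows and groups in columns. ADAMTS4 goes from 0 of 3 in Control and Lamin A/C Kd to 3 of 3 in Lamin B2 Kd, and 14 genes stand at 0 in every group.

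On Lamin B2 Kd replicates 1, 2 and 3, respectively 30, 43 and 41 of the 63 members were detected, against 29 to 33 on the Control arrays and 32 to 35 on the Lamin A/C Kd arrays. Of all gene names, 24272 and 23952 were detected on Lamin B2 Kd replicates 2 and 3, and 21779 to 22727 on the other 7 arrays. The part of these array-wide differences in the detection of single members was not tested.

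In Lamin A/C Kd, 31 members were tested against Control. A gene was called at a change of at least 2-fold with an unadjusted p under 0.05. This held for 2 of them, MMP11 (higher) and ADAM9 (lower), where 2.21% of all genes tested were called. An adjusted p under 0.05 at any fold was reached by 5 of the 31, namely MMP11, ADAMTS13, ADAMTS19, MMP15 and ADAM9, where 8.94% of all genes tested reached it. Both counts include ADAM9, which the choice of the family fixed. The adjusted count also includes ADAMTS19, which entered the test through Lamin A/C Kd only, where it is high. The arrays of the 2 groups did not overlap for 10 of the 31 members, 32.3%, beside a background of 40.9% of all genes tested. The median change of the tested members was 0.14 on the log2 scale and that of all genes tested was -0.04. The members' median includes ADAM7, ADAM12, ADAMTS5, ADAMTS19 and MMP24, which passed the filter on detection through Lamin A/C Kd only. All of these except ADAMTS5 read higher there. It also includes MMP23B, which passed through Control only and read lower upon Lamin A/C Kd. The difference of the medians was not tested.

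ADAM9, a membrane protease that releases growth factor precursors and is made by many epithelial tumors, was the one ADAM gene called in either knockdown by its brightest probe. Its log2 signal was 3.83, 3.72 and 4.05 in Control, 2.65, 2.47 and 2.61 in Lamin A/C Kd, and 4.11, 3.85 and 3.79 upon Lamin B2 Kd. Every Lamin A/C Kd array lay below every other array, and the Lamin B2 Kd arrays overlapped those of Control. The level in Lamin A/C Kd was 40.8% of Control, a difference of -1.29 ± 0.14 (standard error of the fit, n = 3 per group), and the difference in Lamin B2 Kd was 0.05 ± 0.14. The other ADAM9 probe gave the same order with a smaller difference. It read 1.24, 1.42 and 1.48 in Control and 1.12, 0.95 and 1.05 in Lamin A/C Kd, a difference of -0.34 ± 0.13. With both probes averaged the difference was -0.82.

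MMP11, stromelysin-3, a secreted protease that is activated inside the cell by furin, rose in Lamin A/C Kd. Its log2 signal was -1.05, -1.07 and -0.72 in Control, 0.44, 0.95 and 0.44 in Lamin A/C Kd, and -1.82, -0.86 and -1.79 upon Lamin B2 Kd. The 3 Lamin A/C Kd arrays were the highest of the 9. The rise was 2.93-fold, or 1.55 ± 0.27 on the log2 scale (adjusted p = 0.00951, limma), and Lamin B2 Kd differed from Control by -0.55 ± 0.27 (adjusted p = 0.248, limma). The knockdowns differed 4.29-fold (adjusted p = 0.00159, limma). MMP11 was well above background on 2 of 3 Lamin B2 Kd arrays, so it entered this comparison through Lamin A/C Kd only, where it is high. Its adjusted p for the rise stayed under 0.05 with any 1 array left out (highest 0.0476), and with normexp background correction the rise was 0.76, under 2-fold. MMP11 is known as a gene of fibroblasts around tumors. Of 7 fibroblast markers on the array, 1 was detected on all 9 arrays, LUM was detected on none, and 3 were tested, of which PDGFRB rose 2.87-fold (adjusted p = 0.0109, limma). PDGFRB entered this test through Lamin A/C Kd only, where it is high. The summed linear signal of the 7 markers, in units of the array median, ranged over 2.25 to 2.38 in Control, 2.79 to 3.18 upon Lamin A/C Kd and 2.29 to 2.84 upon Lamin B2 Kd, and its part in the MMP11 result was not tested. All cultures were of 1 cell line. In their bulk RNA, more DLD1 cells that express a gene and more of its RNA per cell cannot be told apart.

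MMP15, a membrane-type MMP that is anchored by a transmembrane helix, was also higher in Lamin A/C Kd. The log2 signal was 5.41, 5.45 and 5.52 in Control, 5.95, 6.10 and 6.06 in Lamin A/C Kd, and 5.52, 5.57 and 5.16 upon Lamin B2 Kd. All Lamin A/C Kd arrays were above the other 6, while Lamin B2 Kd overlapped Control. The rise was 0.58 ± 0.13, or 1.49-fold (adjusted p = 0.0284, limma), and the knockdowns differed by 0.62 ± 0.13 (adjusted p = 0.0138, limma). Its other probe differed from Control by 0.21 ± 0.18 (adjusted p = 0.526, limma). Without any 1 of the 6 arrays compared, the adjusted p of the rise exceeded 0.05 (highest 0.115), while the change stayed between 0.55 and 0.62. The knockdown difference lost its pass without Lamin A/C Kd replicate 2 (adjusted p = 0.0579, limma).

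ADAMTS19, a secreted protease with few known substrates, rose close to 2-fold in Lamin A/C Kd. Its brightest probe read -1.99, -1.59 and -1.48 in Control, -0.44, -0.81 and -0.83 in Lamin A/C Kd, and -1.36, -1.90 and -1.12 upon Lamin B2 Kd. The Lamin A/C Kd arrays were the highest of the 9. The rise was 0.99 ± 0.22 (adjusted p = 0.0272, limma), and the knockdowns differed by 0.77 ± 0.22 (adjusted p = 0.0469, limma). This probe was well above background on 2 of 3 Control arrays. It therefore entered the test against Control through Lamin A/C Kd only, where it is high. The other probes of the gene differed from Control by 1.14 ± 0.40 (adjusted p = 0.113, limma) and 1.16 ± 0.49 (adjusted p = 0.182, limma). On the Control arrays the last of them did not rise well above background, which makes the difference at least 1.75-fold by the lowest signal above background. These dimmer probes were well above background on 1 and 0 of 3 Control arrays, and likewise on 1 and 0 of 3 Lamin B2 Kd arrays. They therefore entered both the test against Control and that between the knockdowns through Lamin A/C Kd only, where they are high. The dimmest was at least 1.86-fold higher upon Lamin A/C Kd than upon Lamin B2 Kd by the same bound. Without any 1 of the 6 arrays compared, the adjusted p of the brightest probe exceeded 0.05 (highest 0.11), and with normexp background correction the rise was 0.38. The pass between the knockdowns was lost in 8 of 9 such fits, all except that without Lamin B2 Kd replicate 3 (highest adjusted p = 0.152, limma).

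ADAM17, the enzyme that releases tumor necrosis factor and several ligands of the epidermal growth factor receptor, had 3 probes that all read higher in Lamin A/C Kd. The brightest read 5.12, 5.09 and 5.31 in Control, 5.42, 5.44 and 5.70 in Lamin A/C Kd, and 5.02, 5.08 and 5.07 upon Lamin B2 Kd. It differed from Control by 0.35 ± 0.12 upon Lamin A/C Kd (adjusted p = 0.117, limma), and between the knockdowns by 0.46 ± 0.12 (adjusted p = 0.0328, limma). The probe of middle brightness rose by 0.63 ± 0.14 (adjusted p = 0.0245, limma), and the dimmest differed by 0.32 ± 0.11 (adjusted p = 0.115, limma). No Lamin A/C Kd array overlapped a Control array on any of the 3 probes. The pass of the brightest probe between the knockdowns was lost in 7 of 9 fits with 1 array left out, all except those without Control replicate 3 and without Lamin B2 Kd replicate 3 (highest adjusted p = 0.107, limma).

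ADAM10, the main protease of Notch receptors, read 2.77, 2.76 and 2.81 in Control, 2.50, 2.57 and 2.59 in Lamin A/C Kd, and 2.67, 2.68 and 2.32 upon Lamin B2 Kd. Both knockdowns lay below Control without overlap. The differences of -0.23 ± 0.13 and -0.22 ± 0.13 did not pass the test (adjusted p = 0.318 and 0.302, limma).

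**Figure D2:**
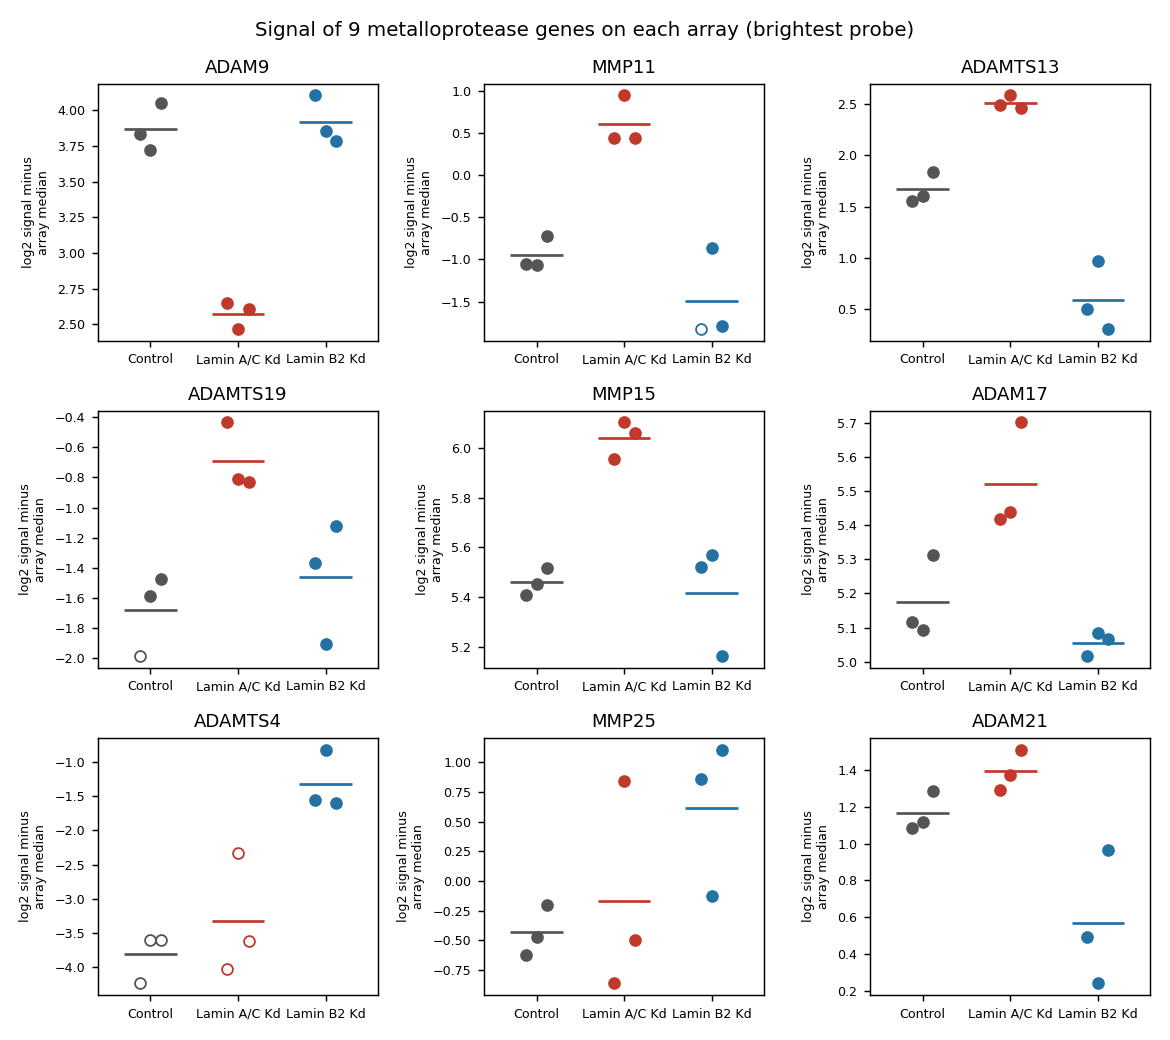
Log2 signal minus the array median on each of the 9 arrays for 9 genes, by the brightest probe, with points for arrays, lines for group means and open points where the probe was not well above background. ADAM9 is low and MMP11 high on all 3 Lamin A/C Kd arrays, and ADAMTS13 is highest upon Lamin A/C Kd and lowest in Lamin B2 Kd.

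In Lamin B2 Kd, 32 members were tested against Control. The 2-fold rule called 3, with ADAMTS4 and MMP25 higher and ADAMTS13 lower, where 2.03% of all genes tested were called. An adjusted p under 0.05 was reached by 2, ADAMTS4 and ADAMTS13, where 4.38% of all genes tested reached it. ADAMTS4 was in both counts by the choice of the family, and it passed the filter on detection through Lamin B2 Kd only, where it is high. The arrays did not overlap for 9 of the 32 members, 28.1%, beside a background of 32.9% of all genes tested. The median change of the tested members was 0.18 and that of all genes tested was -0.14. The members' median includes ADAM7, ADAM12, ADAMTS4, ADAMTS5, ADAMTS19 and MMP24, which passed the filter through Lamin B2 Kd only and read higher there. It also includes MMP11 and MMP23B, which passed through Control only and read lower upon Lamin B2 Kd. The difference of the medians was not tested.

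ADAMTS4, aggrecanase-1, which cuts the proteoglycans aggrecan and versican, was detected upon Lamin B2 Kd and in no other group. Its log2 signal was -4.24, -3.61 and -3.60 in Control, -4.03, -2.33 and -3.63 in Lamin A/C Kd, and -1.56, -0.82 and -1.60 upon Lamin B2 Kd. As processed intensities these were 4.37, 5.82 and 5.93 in Control, 4.34, 12.5 and 5.34 in Lamin A/C Kd, and 22, 43.1 and 26.9 upon Lamin B2 Kd. All 3 Lamin B2 Kd arrays were above the other 6, and Lamin A/C Kd replicate 2 was the highest of those 6. Since Control and Lamin A/C Kd were not well above background, only a bound can be given. Lamin B2 Kd was at least 1.76-fold above Control and at least 1.58-fold above Lamin A/C Kd, taking the dim groups at the lowest signal well above background on each array. The measured means differed by 2.49 ± 0.42 on the log2 scale from Control, and with normexp background correction by 0.44. The other ADAMTS4 probe was detected on 0 of 9 arrays, so the detection rests on 1 probe.

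ADAMTS13, which cuts von Willebrand factor and is known mainly from the liver, moved in opposite directions in the knockdowns by its brightest probe. It read 1.56, 1.61 and 1.84 in Control, 2.49, 2.59 and 2.46 in Lamin A/C Kd, and 0.50, 0.97 and 0.30 upon Lamin B2 Kd. The 3 groups did not overlap. It rose by 0.84 ± 0.17 upon Lamin A/C Kd (adjusted p = 0.0185, limma) and fell by 1.08 ± 0.17 upon Lamin B2 Kd (adjusted p = 0.0172, limma), and the knockdowns differed 3.79-fold (adjusted p = 0.000397, limma). The other probes of the gene gave other values. The next one differed from Control by -0.12 ± 0.26 upon Lamin A/C Kd (adjusted p = 0.843, limma) and by 0.17 ± 0.26 upon Lamin B2 Kd (adjusted p = 0.702, limma). The dimmest differed by 0.22 ± 0.28 (adjusted p = 0.716, limma) and 0.58 ± 0.28 (adjusted p = 0.244, limma). Averaging the probes gave changes of 0.31 and -0.11. The same differences taken from the deposited normalized table, which joins probes, were 0.48 and -0.29. The pass in Lamin A/C Kd was lost without any 1 of the 6 arrays compared (highest adjusted p = 0.0842, limma). In Lamin B2 Kd the pass was lost without any 1 Control array (highest adjusted p = 0.0953, limma), and the change fell short of 2-fold without Control replicate 3 (-0.99) or Lamin B2 Kd replicate 3 (-0.94).

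MMP25, a membrane-type MMP held by a lipid anchor and known from neutrophils, was called in Lamin B2 Kd by fold and unadjusted p. It read -0.62, -0.47 and -0.20 in Control, -0.86, 0.84 and -0.49 in Lamin A/C Kd, and 0.86, -0.13 and 1.11 upon Lamin B2 Kd. The Lamin B2 Kd arrays were above Control without overlap, and Lamin A/C Kd replicate 2 lay within the Lamin B2 Kd range. The difference of Lamin B2 Kd was 1.04 ± 0.44, which did not pass after adjustment (adjusted p = 0.196, limma). The call held in 8 of 19 alternative settings. It was lost without any 1 Control array (0.95, 1.02 and 1.16 without replicates 1, 2 and 3), and without Lamin B2 Kd replicate 1 (0.92) or 3 (0.80). It was also lost with normexp background correction (0.61), quantile normalization (1.07) and the slide as a block (0.80). The slide block gives the same difference as leaving out Lamin B2 Kd replicate 3, so it is no separate check. Without Lamin A/C Kd replicate 3, without a filter on detection and with a replicate block the difference stayed at 1.04 and the unadjusted p rose above 0.05.

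Other ADAM genes differed in Lamin B2 Kd without passing against Control. ADAM8, a protease of leukocytes and some tumors, read 5.15, 4.98 and 5.07 in Control and 4.57, 4.77 and 4.02 in Lamin B2 Kd, a difference of -0.61 ± 0.18 (adjusted p = 0.092, limma), and of -0.40 without Lamin B2 Kd replicate 3. ADAM21, known from testis, read 1.09, 1.12 and 1.29 in Control, 1.29, 1.38 and 1.51 upon Lamin A/C Kd and 0.49, 0.24 and 0.97 upon Lamin B2 Kd. Its arrays in Lamin B2 Kd lay below all others, with a difference from Control of -0.60 ± 0.18 (adjusted p = 0.0962, limma). The knockdowns differed by 0.83 ± 0.18 (adjusted p = 0.0152, limma), and this pass was lost without Lamin A/C Kd replicate 2 or 3 (highest adjusted p = 0.0616, limma). ADAM32 differed from Control by 0.49 ± 0.18 upon Lamin B2 Kd (adjusted p = 0.143, limma), and ADAM23, a neuronal adhesion protein without protease activity, by -0.40 ± 0.13 upon Lamin A/C Kd (adjusted p = 0.0843, limma).

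**Figure D3:**
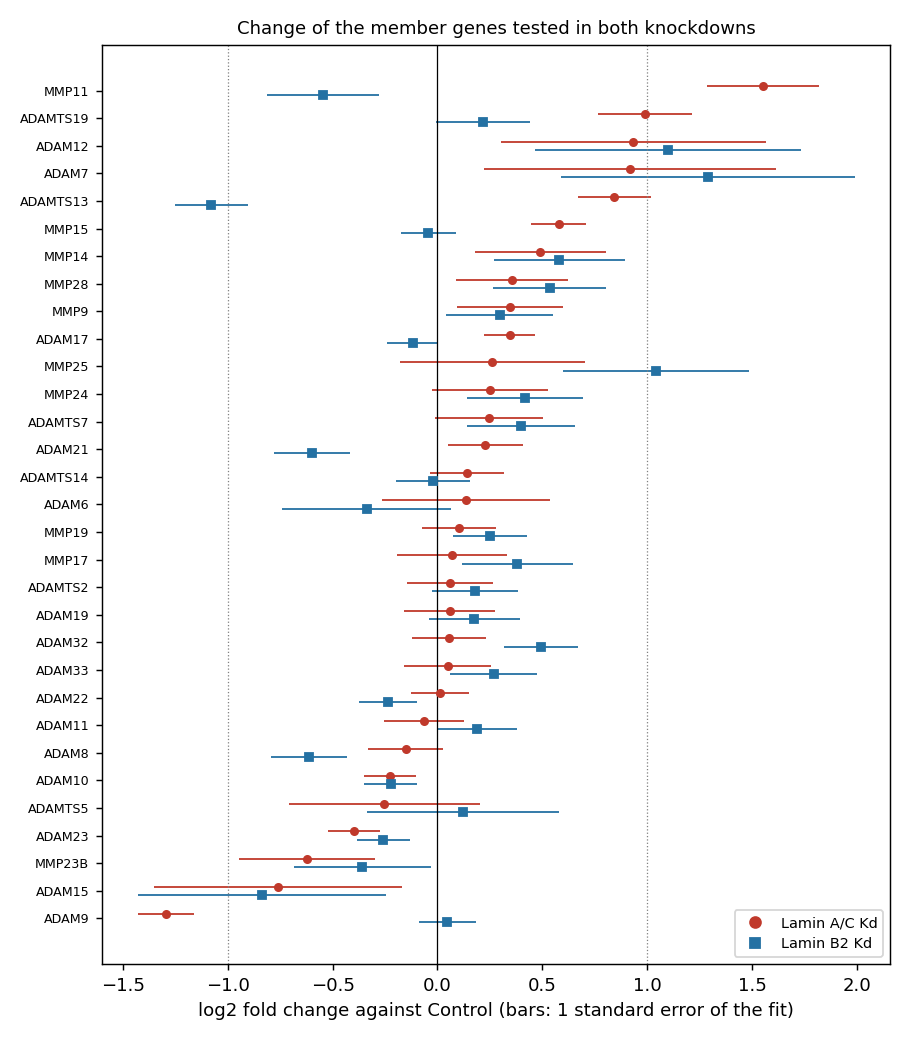
Log2 fold change against Control of the 31 genes tested in both knockdowns, with circles for Lamin A/C Kd, squares for Lamin B2 Kd, bars of 1 standard error and dotted lines at a 2-fold change. MMP11 and ADAMTS13 lie on opposite sides of 0 in the knockdowns, and ADAM9 lies at -1.29 upon Lamin A/C Kd and 0.05 upon Lamin B2 Kd.

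Several large differences rested on 1 array. ADAM12, which sheds growth factor precursors, read -1.07, -3.65 and -1.03 in Control, -0.94, -0.86 and -1.16 upon Lamin A/C Kd and -1.20, -1.19 and -0.07 upon Lamin B2 Kd. Its difference from Control was 0.93 upon Lamin A/C Kd and 1.10 upon Lamin B2 Kd, and without Control replicate 2 it was 0.07 and 0.23. ADAM7, which is known from the epididymis, read -0.20, -3.31 and -0.43 in Control, with the same array low. Its differences of 0.92 and 1.29 became -0.08 and 0.29 without Control replicate 2. ADAM15, an ADAM with an integrin-binding motif, read 4.46, 4.50 and 4.68 in Control, 3.84, 4.59 and 2.94 in Lamin A/C Kd, and 4.06, 4.78 and 2.29 upon Lamin B2 Kd, with replicate 3 of each knockdown low. Its difference in Lamin B2 Kd was -0.84 ± 0.59, and without replicate 3 of that group -0.13. None of these passed the test in the full set of arrays.

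Most other members detected on all 9 arrays did not pass a test in any comparison by their brightest probe. They were ADAM6, ADAM11, ADAM19, ADAM22, ADAM33, ADAMTS2, ADAMTS7, ADAMTS14, MMP9, MMP14, MMP17, MMP19 and MMP28. Among them MMP14, the membrane-type enzyme that activates the proform of MMP2, read 0.09, -0.86 and 0.17 in Control, -0.09, 0.76 and 0.20 in Lamin A/C Kd, and 0.40, 0.68 and 0.07 upon Lamin B2 Kd. It differed from Control by 0.49 ± 0.31 and 0.58 ± 0.31, with Control replicate 2 the lowest array. MMP9, a gelatinase, differed by 0.35 ± 0.25 and 0.30 ± 0.25, and MMP28, epilysin, by 0.36 ± 0.27 and 0.54 ± 0.27. The other probe of MMP28 went the other way in Lamin B2 Kd, by -0.54 ± 0.18. ADAM11 was called between the knockdowns by its dimmer probe, 1.27 ± 0.43 higher upon Lamin A/C Kd (adjusted p = 0.0822, limma), while its brighter probe differed by -0.25 ± 0.19. The dimmer probe was well above background on 2 of 3 Lamin B2 Kd arrays. It therefore entered this comparison through Lamin A/C Kd only, where it is high.

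**Figure D4:**
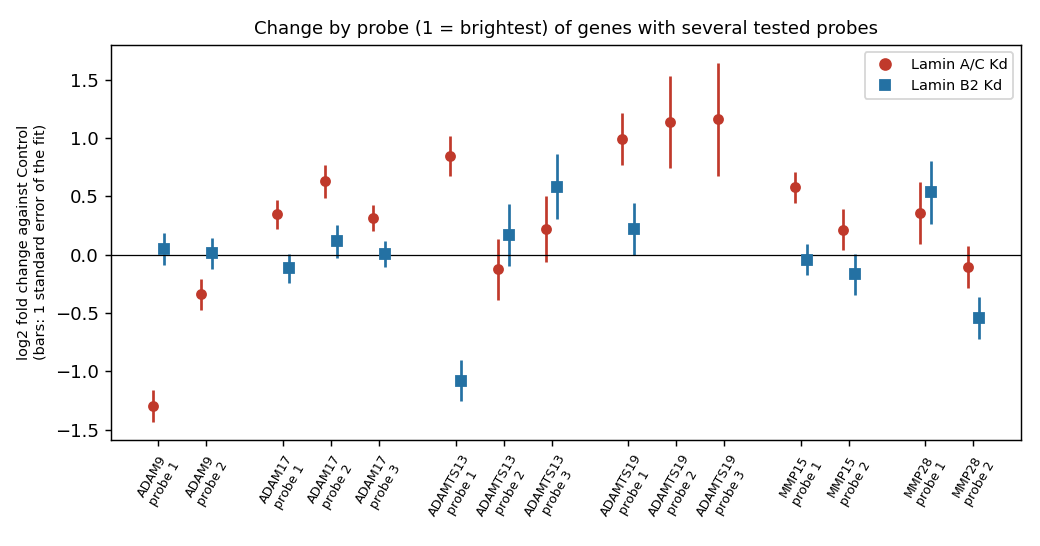
Log2 fold change against Control, with bars of 1 standard error, for each tested probe of 6 genes, numbered from the brightest, with circles for Lamin A/C Kd and squares for Lamin B2 Kd. The 3 probes of ADAM17 and of ADAMTS19 lie above 0 in Lamin A/C Kd, and only the brightest of the 3 ADAMTS13 probes lies well above 0 there and well below 0 in Lamin B2 Kd.

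Compared directly, the knockdowns differed by the 2-fold rule in 4 of 31 members tested, with MMP11 and ADAMTS13 higher and ADAM9 and ADAMTS4 lower in Lamin A/C Kd, where 4.19% of all genes tested were called. An adjusted p under 0.05 was reached by 8 of the 31, which adds ADAMTS19, ADAM21, MMP15 and ADAM17, all higher in Lamin A/C Kd, where 15.7% of all genes tested reached it. Both counts include ADAM9 and ADAMTS4, on which the family was selected. ADAMTS4 entered this comparison through Lamin B2 Kd only, where it is high, and MMP11 through Lamin A/C Kd only, where it is high. The arrays of the knockdowns did not overlap for 9 of the 31 members, 29% of them, beside a background of 32.3% of all genes tested. The level of ADAM9 in Lamin A/C Kd was 39.5% of that in Lamin B2 Kd. The median difference was -0.12 over the tested members and 0.05 over all genes tested.

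Partners of the family were read from lists of cofactors, inhibitors, activating proteases and substrates. The counts of these small lists are to be read beside the shares of all genes tested with an adjusted p under 0.05, which were 8.94% upon Lamin A/C Kd and 4.38% upon Lamin B2 Kd. RHBDF2, the inactive rhomboid iRhom2 that ADAM17 needs to leave the endoplasmic reticulum, was chosen for description after its values were seen. It read 4.88, 4.83 and 4.91 in Control, 5.51, 5.76 and 5.61 in Lamin A/C Kd, and 4.20, 4.42 and 3.93 upon Lamin B2 Kd, so the 3 groups did not overlap. It rose by 0.75 ± 0.14 upon Lamin A/C Kd (adjusted p = 0.0135, limma), fell by 0.69 ± 0.14 upon Lamin B2 Kd (adjusted p = 0.0363, limma) and differed 2.72-fold between the knockdowns (adjusted p = 0.000564, limma). Its other probes changed by 0.69 and 0.68 upon Lamin A/C Kd and by -0.74 and -0.68 upon Lamin B2 Kd, each past the adjusted threshold. The pass held in 15 of 19 alternative settings for Lamin A/C Kd and in 9 of 19 for Lamin B2 Kd, and the fits without any 1 Control array or without Lamin A/C Kd replicate 2 lost it in both. Of the 8 ADAM10 and ADAM17 cofactors on the array, which also include RHBDF1 and the tetraspanins TSPAN5, TSPAN14 and TSPAN15, RHBDF2 was the one that passed.

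Of the tissue inhibitors, TIMP3, which blocks ADAM17 and several ADAMTS enzymes besides MMPs, fell in Lamin A/C Kd. It read 2.12, 2.17 and 2.49 in Control, 0.77, 1.15 and 1.17 in Lamin A/C Kd, and 2.01, 2.24 and 1.70 upon Lamin B2 Kd, with the Lamin A/C Kd arrays below all others. The level was 42.6% of Control (adjusted p = 0.00601, limma), and Lamin B2 Kd differed by -0.28 ± 0.18 (adjusted p = 0.369, limma). The call held in 19 of 19 alternative settings. TIMP1, TIMP2 and TIMP4 differed from Control by 0.00, 0.06 and 0.32 upon Lamin A/C Kd and by 0.03, -0.07 and -0.20 upon Lamin B2 Kd, and none passed. RECK, a membrane-bound inhibitor of MMPs, gave opposite results by probe. Its brighter probe fell by 0.60 ± 0.12 upon Lamin A/C Kd (adjusted p = 0.0158, limma). Its dimmer probe rose by 1.09 ± 0.13 (adjusted p = 0.00236, limma), from -0.26, -0.03 and 0.06 in Control to between 0.97 and 1.08 on the knockdown arrays. No direction can be given for the gene.

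Proprotein convertases, which cut off the inhibitory propeptide of many ADAM, ADAMTS and membrane-type MMP proteins, changed in part. Of 7 tested, 1 rose and 1 fell upon Lamin A/C Kd, with a median of 0.04 beside -0.04 over all genes tested. Upon Lamin B2 Kd the median was -0.50, beside -0.14 over all genes tested. There the arrays did not overlap Control for 6 of the 7, 5 lower and 1 higher, beside 32.9% of all genes tested. Between the knockdowns 6 of the 7 did not overlap, 4 higher and 2 lower upon Lamin A/C Kd, beside 32.3%. Whether the list differs from other genes was not tested. MBTPS1, site-1 protease, which activates transcription factors of sterol and stress responses in the Golgi, was at 48.6% of Control upon Lamin A/C Kd (adjusted p = 0.00438, limma), and PCSK5 rose by 0.52 ± 0.13 (adjusted p = 0.0434, limma). PCSK7 fell by 0.78 ± 0.18 upon Lamin B2 Kd (adjusted p = 0.0476, limma). FURIN, which activates MMP11 and many membrane-type enzymes, differed by -0.38 ± 0.13 upon Lamin A/C Kd (adjusted p = 0.118, limma) and by 0.33 ± 0.13 upon Lamin B2 Kd (adjusted p = 0.177, limma). Between the knockdowns FURIN differed by -0.71 ± 0.13, lower upon Lamin A/C Kd (adjusted p = 0.00833, limma).

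Among the proteins that ADAM proteases release, Notch receptors and ligands had 8 genes tested, of which 2 fell upon Lamin A/C Kd and 1, another gene, upon Lamin B2 Kd, beside 8.94% and 4.38% of all genes tested. NOTCH2 read 6.56, 6.51 and 6.58 in Control, 5.36, 5.23 and 5.50 in Lamin A/C Kd, and 6.78, 6.61 and 6.32 upon Lamin B2 Kd, with no overlap between Lamin A/C Kd and the rest. It was at 44% of Control upon Lamin A/C Kd (adjusted p = 0.00236, limma), a call that held in 19 of 19 alternative settings. DLL4, a Notch ligand, fell by 0.77 ± 0.18 upon Lamin A/C Kd (adjusted p = 0.0293, limma) and the receptor NOTCH4 by 0.97 ± 0.17 upon Lamin B2 Kd (adjusted p = 0.021, limma). DLL4 entered its test through Control only, where it is high. Of the ligands and receptors of the epidermal growth factor family, 1 of 8 tested rose upon Lamin A/C Kd and 1 fell, and 0 of 9 passed upon Lamin B2 Kd by the brightest probe (limma, with 3 at an unadjusted p under 0.05). BTC, the ligand betacellulin, rose by 0.78 ± 0.18 (adjusted p = 0.0313, limma) and the receptor ERBB2 fell by 0.56 ± 0.14 (adjusted p = 0.0405, limma). Of 12 other shed proteins tested, IL6R, the interleukin-6 receptor, rose by 0.56 ± 0.14 upon Lamin A/C Kd (adjusted p = 0.0404, limma), and 0 of 12 passed upon Lamin B2 Kd (limma, with 1 at an unadjusted p under 0.05). TNF was called in Lamin B2 Kd by a dimmer probe, 1.21 ± 0.40 higher (adjusted p = 0.123, limma), while its brightest probe differed by -0.33 ± 0.24.

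**Figure D5:**
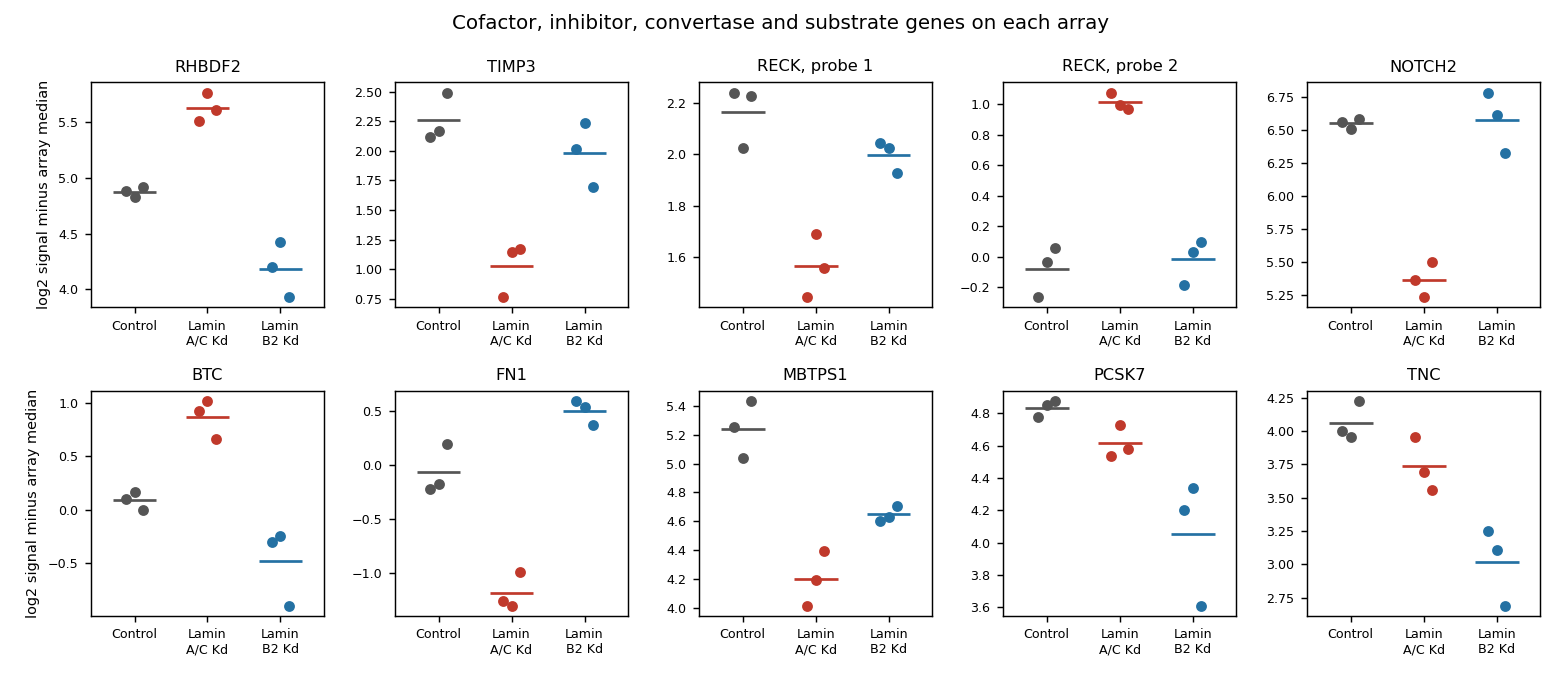
Log2 signal minus the array median on each of the 9 arrays for 9 partner genes, with both probes of RECK, points for arrays and lines for group means. RHBDF2 is highest upon Lamin A/C Kd and lowest in Lamin B2 Kd, TIMP3, NOTCH2 and FN1 are lowest in Lamin A/C Kd, and the RECK probes lie on opposite sides of Control there.

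Matrix proteins cut by MMPs had 10 genes tested, of which 1 passed in each knockdown, beside 8.94% and 4.38% of all genes tested, so the counts are no result about the list. FN1, fibronectin, was at 46.1% of Control upon Lamin A/C Kd by its brightest probe (adjusted p = 0.00415, limma) and differed by 0.57 ± 0.15 upon Lamin B2 Kd (adjusted p = 0.069, limma), so that the knockdowns differed 3.22-fold (adjusted p = 0.000389, limma). Over 19 alternative settings the FN1 change upon Lamin A/C Kd lay between -1.21 and -0.45, and the call held in 15. TNC, tenascin-C, was at 48.4% of Control upon Lamin B2 Kd (adjusted p = 0.0192, limma). Of 7 ADAMTS substrates tested, and of 5 ADAMTS-like proteins, which lack the protease domain, 0 passed in either knockdown with limma. At an unadjusted p under 0.05 there were 0 of either list in Lamin A/C Kd, and 2 substrates and 1 ADAMTS-like gene upon Lamin B2 Kd. In plasminogen activation, a proteolytic cascade that can activate MMPs, 1 of 7 tested genes passed, the inhibitor SERPINE2, which fell by 0.85 ± 0.19 upon Lamin A/C Kd (adjusted p = 0.026, limma). Of 6 astacins and other zinc proteases tested, TLL2, a tolloid-like procollagen C-proteinase, rose by 0.73 ± 0.15 upon Lamin A/C Kd (adjusted p = 0.0203, limma).

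Most of the partner genes lost their pass in some fits with 1 array left out. Such fits have fewer arrays, so a lost pass does not by itself show that a change rests on 1 array. Among the partner genes named above as passing against Control, TIMP3, MBTPS1 and NOTCH2 passed in every alternative setting, FN1 lost its pass when its probes were averaged, and each of the others lost it without Control replicate 1. All of those others except NOTCH4 and TNC also lost it without at least 1 array of the knockdown concerned, and DLL4, ERBB2, IL6R and PCSK5 lost it without any 1 of the 6 arrays compared. Without a filter on detection the pass was lost by each of those others except RECK and, upon Lamin A/C Kd, RHBDF2. Among the colon epithelial markers VIL1, the brush border protein villin, was at 48% of Control upon Lamin B2 Kd (adjusted p = 0.034, limma) and no other passed. Of 9 interferon response genes tested, which double-stranded RNA can induce, IFIT2 rose 1.74-fold upon Lamin A/C Kd (adjusted p = 0.00405, limma). IFIT1 and MX1 fell in Lamin B2 Kd to 67.3% and 69.1% of Control (adjusted p = 0.0421 and 0.0465, limma). VIL1, IFIT1 and MX1 lost their pass without any 1 Control array, without Lamin B2 Kd replicate 1 and without a filter on detection. The part of an siRNA response in the results was not tested. Blood cell and endothelial markers had 5 and 2 genes tested, and 0 passed in either knockdown with limma, nor at an unadjusted p under 0.05.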

How the data were processed

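RNA of 9 DLD1 cultures was hybridised to Agilent single-color arrays. The deposited scanner files hold intensities per spot, which the authors extracted with Agilent Feature Extraction (version 10.5 in the submitters' processing notes, 10.7.3.1 in the file headers), with background subtracted. A deposited table of log2 signals, normalized by the authors to the 50th percentile of each array, joins probes and was used as an alternative only. Its Lamin B2 Kd columns were taken as that group without replicate numbers, because by correlation their set numbers did not follow those of the scanner files.

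From the scanner files the processed intensities of 51538 non-control spots per array were taken as log2, each array's 50th percentile was subtracted, outlier spots were left out and spots of one probe were averaged, which gave 50238 probes. A model of 3 group means was fitted over all 9 arrays with limma 3.58.1 in R 4.3.3, with p-values adjusted by Benjamini-Hochberg over the 33131 (Lamin A/C Kd), 33535 (Lamin B2 Kd) or 33134 (knockdowns compared) probes tested. Probes entered the test if every array of 1 of the groups compared showed them well above background. A gene was represented by its brightest probe. A gene was called at 2-fold or more with an unadjusted p under 0.05, the criterion of the methods. Error is the standard error of the fit, and 3 arrays per group limit the precision. Exact permutation of 3 against 3 arrays cannot give a p below 0.1 and was not used. For dim groups a fold is given as a bound, from means of normalized log2 values with each dim array set to the higher of its own value and its lowest signal well above background.

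The genes named were ADAM9 and ADAMTS4, members with a called probe or detected on all arrays, list genes called in a knockdown, the TIMPs, and others said to be chosen after their values were seen or that passed after adjustment. The members, the gene lists and the tests were chosen with earlier results of these data known. The fit was tested on simulated data before use. Alternatives were scaling to the 75th percentile or by quantiles, normexp correction of the background (offset 50), the authors' table, other detection filters, a replicate block, a slide block, fits of 2 groups, other call rules, averaged probes and leaving out each array. Because Lamin B2 Kd replicate 3 was alone on its slide, the slide block gives the same differences as leaving out that array. Promoters came from RefSeq, and proteins were not used here. A result of 1 gene of the convertase list is not reported here.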

Additional observations from a re-analysis of the deposited data

How the results depend on the processing

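The number of members passing in Lamin A/C Kd, 2 called and 5 by adjusted p, depended on the processing. The called count was 1 with normexp, 1 with detection required on all 9 arrays and 4 at 1.5-fold, and the adjusted count was 2 without a detection filter, 3 with detection on all 9 arrays and 3 with probes averaged. In Lamin B2 Kd, 3 called and 2 by adjusted p, the called count was 1 with quantile normalization, 0 with normexp (limma, with 5 at an unadjusted p under 0.05), 7 without a detection filter, 1 with the slide as a block and 5 at 1.5-fold. The adjusted count there was 1 with the authors' table, 1 with detection on all 9 arrays, 0 without a filter (12 unadjusted) and 0 in a fit of the 2 groups alone (6 unadjusted). Between the knockdowns, 4 called and 8 by adjusted p, the called count was 2 with normexp, 8 without a filter, 2 with detection on all 9 arrays and 7 at 1.5-fold, and the adjusted count was 5 with detection on all 9 arrays and 4 in a fit of the 2 groups alone. Leaving out 1 array gave 2 to 3 called and 2 to 6 by adjusted p in Lamin A/C Kd, 1 to 7 and 0 to 5 in Lamin B2 Kd, and 4 to 9 and 4 to 8 between the knockdowns. In Lamin B2 Kd the adjusted count was 0 without any 1 Control array (5 to 6 unadjusted), 5 without Lamin B2 Kd replicate 2, and the called count was 7 without Lamin B2 Kd replicate 1. No difference of a brightest probe of a member that was called or passed by adjusted p reversed its direction, whereas some that did neither changed sign, among them that of ADAM7 upon Lamin A/C Kd without Control replicate 2 (from 0.92 to -0.08). No pairing of the arrays by replicate number was seen. Deviations of same-numbered arrays correlated between -0.09 and 0.15 over 9 pairs, with 1 over 0.1. Those of differently numbered arrays correlated between -0.12 and 0.15 over 18 pairs, with 1 over 0.1. The Lamin B2 Kd numbers differ between the scanner files and the deposited table, so these values cannot exclude a pairing by culture set. With a replicate block the adjusted counts were 3 upon Lamin A/C Kd and 1 upon Lamin B2 Kd, and no other count moved by more than 1.5 times. The 75th percentile in place of the 50th moved the median change of all probes in Lamin B2 Kd from -0.14 to 0.06, and the members' counts stayed within 1.5 times. Signal over background limits ADAMTS4 and the other dim members to bounds or to no test. The cause of these differences was not tested.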
